A study of Mus musculus with 12 samples.

Results

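The genes of the cytosolic ribosomal proteins were followed across 4 stages of mouse lung development in sorted cells carrying 2 fluorescent reporters, Acta2-dsRed and Pdgfra-GFP. Members were the rows whose symbol was Rpl or Rps followed by a number with its suffix letters, by a stalk name (Rplp0, Rplp1, Rplp2) or by the single letter a (Rpsa), leaving out rows named as pseudogenes with -ps. This choice used names only and took 80 of the 28004 rows, 32 of the small subunit and 48 of the large subunit. Bulk RNA was sequenced from the fetal lung at E17.5 and from the postnatal lung at P3, P7 and P10 (days after birth), in 3 libraries a stage. All 4 groups carried the same 2 reporters and were double-positive cells sorted from whole dissociated lung, and the labels give no other allele, strain, sex or number of animals behind a library. The groups are therefore defined by 2 reporters, which several mesenchymal cell types can carry, and not by a single cell type. Whether the 3 libraries of a stage are separate animals is not stated, so the p-values rest on the spread among these samples, which may be technical.

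Each cytosolic ribosome is built from a small subunit, which reads the mRNA, and a large subunit, which joins amino acids, and every ribosomal protein is normally needed once per ribosome, apart from the acidic stalk proteins. The genes lie scattered over the chromosomes, and their mRNAs are among the most abundant of growing cells. In vertebrates these mRNAs typically begin with a C followed by an unbroken run of pyrimidines, the terminal oligopyrimidine or TOP start, through which the kinase mTOR and the RNA-binding protein LARP1 set how well they are translated. Alveolar myofibroblasts, contractile cells that raise the septa dividing the airspaces after birth, are among the lung cells known to express both Acta2 and Pdgfra.

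The start of the transcript, where a TOP mRNA has its pyrimidine run, is shown for some members in which a run was found and whose levels are described later. RefSeq's promoter sequences (GRCm38.p6) held 59 of the 80 members by symbol. A C followed by at least 4 further pyrimidines, beginning within 5 bases of an annotated start, was found in 28 of these 59 members (47.5%), against 21.2% of all 27025 genes of the promoter table. The windows below run from 10 bases before the annotated start to 20 bases from it on, and capitals mark the pyrimidine run from its first C within 5 bases of the start; pyrimidines before that C stay in lower case.
Rpl28, chr7:4792955-4792984, plus strand: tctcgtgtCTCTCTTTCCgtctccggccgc
Rpl35, chr2:39005112-39005141, minus strand: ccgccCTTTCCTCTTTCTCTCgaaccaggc
Rpl38, chr11:114668570-114668599, plus strand: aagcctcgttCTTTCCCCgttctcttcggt
Rps6, chr4:86857348-86857377, minus strand: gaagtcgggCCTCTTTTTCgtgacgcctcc
Rps10, chr17:27635225-27635254, minus strand: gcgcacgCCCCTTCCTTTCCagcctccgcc
Rps27, chr3:90213629-90213658, minus strand: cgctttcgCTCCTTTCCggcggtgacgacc
Rps27l, chr9:66946076-66946105, plus strand: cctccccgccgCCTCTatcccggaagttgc
Rpl34, chr3:130730318-130730347, minus strand: cttttCCTCTTCCggggacggtgctcagag
The stretch in capitals was 16 bases long at Rpl35 and 5 bases long at the start shown for Rps27l, the low-level relative of Rps27. Rpl34 and Rps27l each have a further annotated start, not shown here.

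Upstream of the start, the letters ACTTCCG, which hold the core bound by ETS-family factors, stood on either strand of the 300-base promoter window in 22 of the 59 members (37.3%), against 7.2% of all genes of the table. The letters TATAAA were found in 10.2% of members and 15.7% of all genes, and AAGATGGCG, which holds the core of the YY1 motif, in 5.08% and 1.64%. Both strands were searched for each, no motif contains the letters of another, and a match is a description of these letters and not of binding. The 120 bases just before the annotated start are shown for Rps6, which had 3 matches to ACTTCCG, and for Rpsa and Rpl41, which were among the members with the largest changes after P3. Capitals mark ACTTCCG or, on the opposite strand, CGGAAGT.
Rps6, chr4:86857368-86857487, minus strand: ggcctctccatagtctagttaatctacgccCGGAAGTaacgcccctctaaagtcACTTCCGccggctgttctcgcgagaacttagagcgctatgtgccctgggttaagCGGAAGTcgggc
Rpsa, chr9:120127646-120127765, plus strand: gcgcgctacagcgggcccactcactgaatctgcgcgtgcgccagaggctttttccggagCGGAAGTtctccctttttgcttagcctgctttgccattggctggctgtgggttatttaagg
Rpl41, chr10:128549169-128549288, minus strand: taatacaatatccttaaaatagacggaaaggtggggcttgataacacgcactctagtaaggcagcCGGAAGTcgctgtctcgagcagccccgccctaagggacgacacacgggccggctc
The 28 members with a pyrimidine run found at the annotated start had a median log2 fold change of -0.72 for P10 vs P3, and the 30 tested members where none was found had -0.73. The same medians were -0.76 for the 22 members with ACTTCCG and -0.68 for the 36 without it. For P3 vs E17.5 the medians were 0.22 with the pyrimidine run and 0.11 without, and 0.24 with ACTTCCG and 0.14 without. None of these differences was tested. The first split rests on the annotated start, so members where no run was found may still have a TOP start.

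The libraries held 13328623 to 18740591 estimated counts each. The deposited values look already scaled by transcript length, so levels of different members are compared here as CPM, the estimated count relative to the library total after scaling by trimmed mean of M values (TMM). Small structural RNAs of the 7SL and 7SK families took between 20.01% (P10 replicate 3) and 46.3% (E17.5 replicate 2) of a library's estimated counts, and these 2 libraries also had the highest and the lowest TMM factor, 1.48 and 0.589. The sorted-cell markers themselves moved in opposite directions across birth. Acta2 averaged 1025 ± 46.4 CPM at P3 and 492 ± 182 at E17.5 (log2 fold change 1.06, adjusted p = 0.0183), and 486.5 ± 166 CPM at P10, where it fell relative to P3 (-1.07, adjusted p = 0.0248). Pdgfra averaged 179 ± 24.1 CPM at P3 and 346 ± 71.9 at E17.5 (-0.95, adjusted p = 0.00430), and 221 ± 38.0 CPM at P10. Markers of other cell types differed between stages. The 6 erythroid markers summed to 117 to 179 CPM at E17.5, 31.9 to 53.6 at P3, 12.5 to 44.1 at P7 and 27.0 to 53.6 at P10, and the 6 airway epithelial markers to 14.95 to 25.8, 85.1 to 137, 122 to 180 and 71.4 to 254 CPM. Krt5 was at or near 0 throughout. The 5 pericyte markers summed to 138.6 to 206 CPM at E17.5, 71.9 to 74.9 at P3, 100.4 to 115 at P7 and 161.5 to 202 at P10. They were lowest at the stage where most members were highest. Of the 5, 3 fell at P3 relative to E17.5, against 12% of all tested genes. The 7 immune markers summed to 10.2 to 11.01, 20.1 to 24.8, 19.8 to 25.8 and 19.2 to 31.4 CPM. Of the 5 tested, 4 rose at P10 relative to E17.5, against 8.79% of all tested genes. Alveolar epithelial and endothelial markers reached at most 239 and 53.7 CPM in any library. The part of these markers and cells in the results was not tested, and in bulk RNA fewer cells of a type and less RNA per cell cannot be told apart.

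Ribosomal protein genes were highest at P3 and lowest at P10 for most members. Their summed level, as a percent of all TMM-scaled CPM, was 5.65%, 4.30% and 4.21% in the 3 libraries of E17.5, 5.05%, 4.90% and 5.80% at P3, 3.77%, 3.57% and 3.76% at P7, and 3.63%, 2.85% and 2.92% at P10. All 3 P3 libraries lay above all P7 and P10 libraries, as did all 3 E17.5 libraries, of which replicate 1 lay inside the P3 range and the other two below it. As a share of all estimated counts before scaling, the same sums were 5.02%, 2.53% and 4.30% at E17.5, 4.52%, 5.14% and 4.92% at P3, 4.06%, 4.38% and 4.20% at P7, and 3.65%, 3.01% and 4.31% at P10, so P3 still had the highest mean (4.86%), but E17.5 overlapped every other stage and P7 overlapped P10. With structural RNA genes left out of the library total, the stage means were 7.71 ± 1.70%, 9.19 ± 0.114%, 6.99 ± 0.331% and 6.07 ± 0.592% from E17.5 to P10 (SD, n = 3 each).

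**Figure D1:**
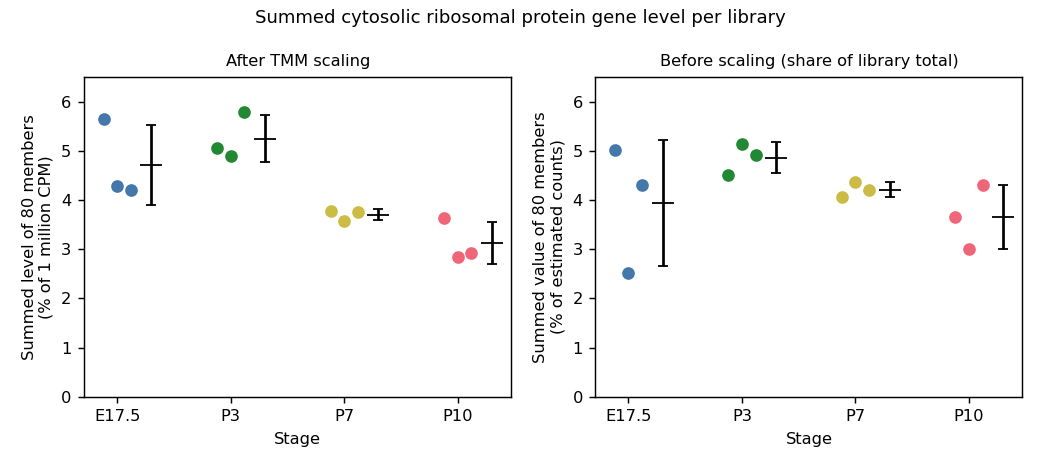
Summed level of the 80 ribosomal protein genes per library (points) at each stage, with the mean and SD of 3 libraries (bars), as a percent of all TMM-scaled CPM on the left and of the library's estimated counts on the right. After scaling, the P3 libraries (4.90% to 5.80%) lie above those of P7 (3.57% to 3.77%) and P10 (2.85% to 3.63%), while before scaling the P10 range reaches 4.31% and overlaps P7 and E17.5.

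A gene's levels over the 4 stages were compared with edgeR's quasi-likelihood test, adjusted by Benjamini-Hochberg over 16827 tested genes, and 79 of the 80 members passed the filter on low values. The exception was Rpl3l, a muscle-enriched relative of Rpl3, which was at 0 in 8 of the 12 libraries and averaged 0.0430 CPM. Of the 79 tested members, 71 (89.9%) differed across the 4 stages, against 32.1% of all tested genes. The 8 that did not pass were Rpl30 (adjusted p = 0.0525), Rpl5, Rpl26, Rps15a, Rps4l, Rpl39, Rps18 and Rps2 (adjusted p = 0.269). The count was 49 without P10 replicate 2, 48 without P10 replicate 3, and 59 to 74 when any other single library was left out, and 71 with the structural RNA genes left out of the scaling. In the 12 libraries, all 79 tested members lay above their own mean in E17.5 replicate 1, between 74 and 78 did so in the P3 libraries, and 1 did so in each of P10 replicates 2 and 3.

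Most members had the same stages of highest and lowest mean level. Their mean level was highest at P3 and lowest at P10 in 59 of 79 cases, and highest at E17.5 and lowest at P10 in another 17. Of the remaining 3, 2 were highest at P3 and lowest at P7, and Rpl34 alone was highest at P10 and lowest at P7. The SD of log2 CPM within a stage had a median of 0.18 over members, against 0.27 over all tested genes, and exceeded 0.5 for 3 members: Rpl26, Rps2 and Rps4l. This SD is a spread within each gene and not a measure of moving together, which was not computed. The share of all tested genes with each of these stage patterns was not computed either. All tested genes were not matched to the members in level, and 0.5 CPM was added before the log for them only.

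**Figure D2:**
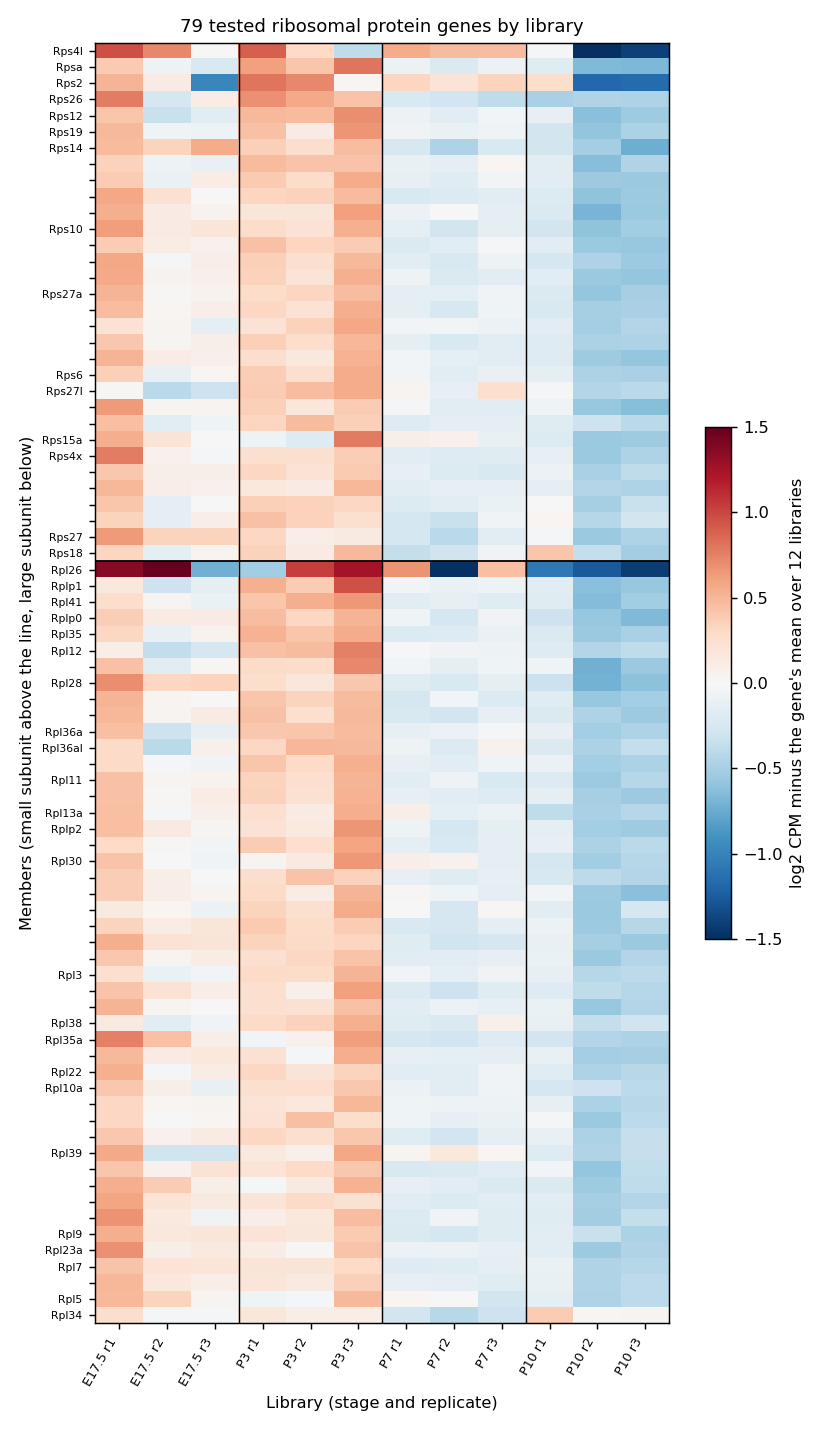
Level of the 79 tested members (rows, small subunit above the line and large subunit below, each ordered by P10 vs P3) in the 12 libraries (columns), as log2 CPM minus the gene's mean over all libraries; colours end at 1.5 on either side and only some rows carry a name. Most rows are red in the E17.5 replicate 1 and P3 columns and blue in the P10 replicate 2 and 3 columns, while Rpl26, Rps2 and Rps4l vary within stages and Rpl34 is not lowest at P10.

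The comparison of P3 with E17.5 asked what changed across birth. Of the 79 tested members, 6 rose at P3 relative to E17.5 (7.59%), against 13.1% of all tested genes that rose, and 0 fell, against 12% of all; by an unadjusted p under 0.05, 15 members were higher (18.3% of all genes) and 0 lower (18.7% of all genes). The members' median log2 fold change was 0.15, with 62 of 79 estimates above 0 (46.8% of all genes), against a median of -0.05 over all tested genes. DESeq2 called 12 members higher and 0 lower, and limma-voom 8 and 0. The count of 6 rested on single libraries: it was 18 without E17.5 replicate 1 and 12 without P10 replicate 1. It was 2 without E17.5 replicate 2 or P3 replicate 3, and 3 without E17.5 replicate 3, P3 replicate 2, P7 replicate 1 or P10 replicate 3.

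The highest called fold changes were those of Rplp1 and Rpl12, both of the stalk, the flexible arm of the large subunit that recruits elongation factors. Rplp1 (chromosome 9, 61913284 to 61914542, minus strand, GRCm38), one of the acidic stalk proteins, had 1610, 1443 and 2152 CPM at P3, against 1242, 892 and 1003 CPM at E17.5. The P3 libraries all lay above those of E17.5 (log2 fold change 0.73, SE 0.18, adjusted p = 0.0155), but this was lost when E17.5 replicate 2 (0.64, adjusted p = 0.0616) or P3 replicate 3 (0.55, adjusted p = 0.0562) was left out. Rpl12 (chromosome 2, 32961559 to 32965345, plus strand), which sits at the stalk base, had 418, 429 and 522 CPM at P3, against 332, 239 and 258 CPM at E17.5 (log2 fold change 0.72, SE 0.14, adjusted p = 0.00375). It passed with any single library left out (log2 fold change 0.62 to 0.88). The other stalk members did not pass in this comparison. Rplp0, the scaffold that holds the acidic proteins, averaged 884 ± 63.6 CPM at P3 and 756 ± 75.2 CPM at E17.5, and Rplp2, the partner of Rplp1, averaged 1561 ± 320 and 1415 ± 216 CPM (SD, n = 3 each).

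Rps27l, a relative of Rps27 that is a p53 target in human cells, had 48.4, 51.4 and 54.9 CPM at P3, against 37.7, 28.1 and 30.2 CPM at E17.5. It rose without overlap (log2 fold change 0.69, SE 0.15, adjusted p = 0.00737), also with any single library left out (0.62 to 0.82). Its abundant paralogue Rps27 had 1011, 870 and 894 CPM at P3, against 1268, 1024 and 1025 CPM at E17.5, an estimate of -0.26 that did not pass (adjusted p = 0.260) although the libraries did not overlap. Rpl41, which encodes the shortest ribosomal protein, averaged 1337 ± 107 CPM at P3 and 969 ± 125 at E17.5 (adjusted p = 0.0335). Rpl38, whose mutation in mice gives skeletal patterning defects, averaged 622 ± 58.1 CPM at P3 and 467 ± 48.7 at E17.5 (adjusted p = 0.0353). Rpl35, a protein of the rim of the exit tunnel, averaged 537 ± 26.5 CPM at P3 and 406 ± 61.0 at E17.5 (adjusted p = 0.0409). These 3 calls were lost in 8, 7 and 9 of the 12 fits that each left out 1 library, with adjusted p up to 0.0975, 0.113 and 0.134 and log2 fold changes of 0.33 to 0.57. Rpsa, the small subunit protein also known as laminin receptor precursor, missed the threshold (log2 fold change 0.56, adjusted p = 0.0501).

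Between P3 and P7 the estimates turned downward for almost every member, but no single member passed. By edgeR's quasi-likelihood test 0 of 79 members fell and 0 rose at P7 relative to P3, where 0.00594% of all tested genes fell and 0% rose. By an unadjusted p under 0.05, 70 members (88.6%) were lower, against 7.41% of all genes, and 0 higher, against 6.85%, and 72 members (91.1%) had all P7 libraries below all P3 libraries, against 13.2% of all genes. The median log2 fold change of the members was -0.49, with 78 of 79 estimates below 0 (49% of all genes), against 0.01 over all genes. DESeq2 called 44 members lower, where it called 4.64% of all genes in either direction, limma-voom called 0, and edgeR called 3 without E17.5 replicate 1.

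The lowest estimates at P7 relative to P3 belonged to Rps26, Rpsa and Rplp1. Rps26, which lies near the mRNA exit of the small subunit, had 840, 807 and 754 CPM at P7, against 1575, 1452 and 1318 CPM at P3 (log2 fold change -0.86, SE 0.21, adjusted p = 0.155). Rpsa had 516, 472 and 517 CPM at P7, against 837, 730 and 954 CPM at P3 (-0.74, SE 0.19, adjusted p = 0.155). Rplp1 had 1081, 1038 and 1051 CPM at P7, against 1610, 1443 and 2152 CPM at P3 (-0.72, SE 0.18, adjusted p = 0.165). In all 3 genes the P7 libraries lay close together and below every P3 library. The highest estimates were those of Rps4l (0.14), Rpl39 (-0.21) and Rps15a (-0.22), whose P7 and P3 libraries overlapped.

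From P7 to P10 the estimates were again mostly below 0 but smaller, and 0 of 79 members passed in either direction, against 2.25% of all tested genes that fell at P10 relative to P7 and 1.4% that rose. By an unadjusted p under 0.05, 9 members were lower (10.3% of all genes) and 1 higher (9.96% of all genes), and 28 members (35.4%) had all P10 libraries below all P7 libraries, against 15% of all genes. The median log2 fold change of the members was -0.24, with 76 of 79 estimates below 0 (48.8% of all genes). DESeq2 called 2 lower and 1 higher, limma-voom 1 higher, and edgeR 2 lower without P10 replicate 1 and 1 higher without E17.5 replicate 1.

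Rpl34 had the highest estimate in that step. Rpl34 (chromosome 3, 130726831 to 130730398, minus strand), a large subunit protein, had 484, 377 and 382 CPM at P10, against 306, 279 and 298 CPM at P7, and its P10 libraries all lay above those of P7. Its log2 fold change was 0.49 (SE 0.12, adjusted p = 0.0536), and it passed by DESeq2 (adjusted p = 0.00298), by limma-voom (adjusted p = 0.0409) and with E17.5 replicate 1 left out (0.49, adjusted p = 0.0416). At E17.5 it had 444, 362 and 362 CPM and at P3 416, 395 and 396 CPM, so P7 was its lowest stage. The next highest estimates were those of Rps18 (0.14, adjusted p = 0.790) and Rps21 (0.00, adjusted p = 0.998), and the lowest were those of Rps4l (-1.47, adjusted p = 0.164), Rpl26 (-1.38, adjusted p = 0.329) and Rps2 (-0.81, adjusted p = 0.340).

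Over the whole interval from E17.5 to P10 the members were lower at the end. Of 79 tested members, 52 (65.8%) fell at P10 relative to E17.5, against 9.5% of all tested genes. None rose, against 8.79% of all, also by DESeq2, by limma-voom or at an unadjusted p under 0.05 (0 members, 15.7% of all genes). In 64 members (81%) every P10 library lay below every E17.5 library, against 16.6% of all genes. The median log2 fold change was -0.57, with 78 of 79 estimates below 0 (49.5% of all genes), against 0.005 over all genes. The number of calls depended on single libraries: it was 16 without P10 replicate 2, 13 without P10 replicate 3 and 26 without E17.5 replicate 1, and 41 to 61 without any other. Under library totals with no scaling factor, 0 members passed. The median over all genes then moved to 0.50 and that of the members to -0.09. Their difference, -0.59, barely depends on scaling, which moves all genes of a library alike.

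Rpl28 (chromosome 7, 4792874 to 4795066, plus strand), a large subunit protein, had 344, 263 and 280 CPM at P10, against 698, 532 and 542 CPM at E17.5, with the stages far apart (log2 fold change -0.999, SE 0.14, adjusted p = 0.000684). Rps14, a small subunit protein whose loss is linked to a human anaemia with deletion of the chromosome arm that carries it, had 322, 273 and 235 CPM at P10, against 539, 492 and 573 CPM at E17.5 (-0.95, SE 0.13, adjusted p = 0.000639). Both passed with any single library left out, and both were also the only members called in this comparison with a minimum fold of 1.5. Rps10 averaged 233 ± 28.5 CPM at P10 and 402 ± 80.5 at E17.5 (SD, n = 3; adjusted p = 0.00531), and Rps27 648 ± 133 and 1106 ± 141 CPM (adjusted p = 0.00655). Rpl35a, one of the genes mutated in Diamond-Blackfan anaemia, averaged 229 ± 16.2 CPM at P10 and 413 ± 93.4 at E17.5 (adjusted p = 0.0120, and 0.0534 without P10 replicate 3). Rps26 averaged 710 ± 7.07 CPM at P10 and 1184 ± 440 at E17.5, where replicate 1 alone held 1673 CPM, and its call (adjusted p = 0.0337) was lost in 8 of the 12 fits that each left out 1 library.

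**Figure D3:**
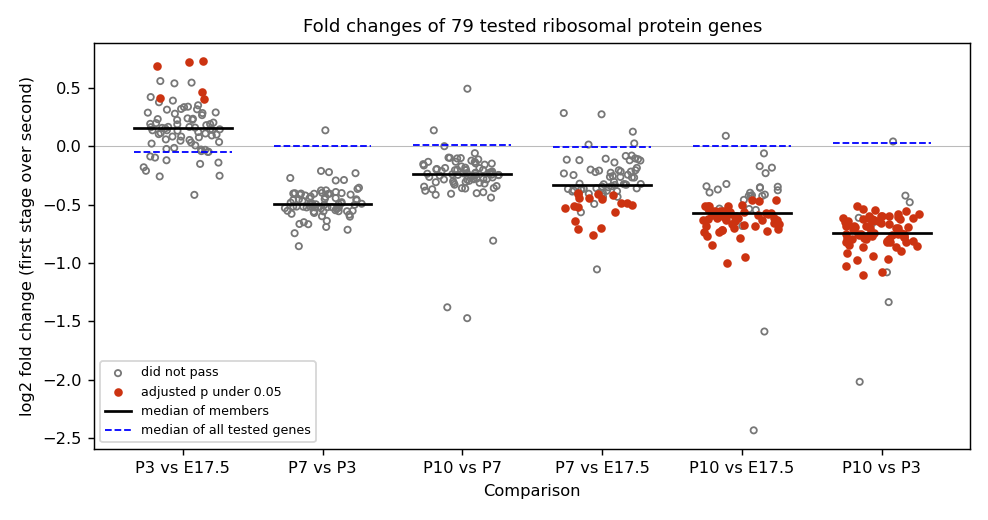
log2 fold change of each of the 79 tested members in 6 comparisons, filled where the adjusted p was under 0.05 by edgeR's quasi-likelihood test; the solid line is the members' median and the dashed line the median of all 16827 tested genes. The members' median lies at 0.15 for P3 vs E17.5 and below the dashed line in the other 5 comparisons; with library totals and no scaling factor, the median for P7 vs E17.5 changes sign to 0.10, where that of all genes is 0.44.

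A pair of further comparisons, added after the values were seen, set P10 against P3 and P7 against E17.5. They share libraries with the comparisons above and are not independent of them. At P10 relative to P3, 71 of 79 members fell (89.9%), against 9.4% of all tested genes, with a median log2 fold change of -0.74. None rose, against 7.9% of all, nor by DESeq2, limma-voom or an unadjusted p under 0.05 (0 members, 16.1% of all genes). In 75 members (94.9%) every P10 library lay below every P3 library, against 18.7% of all genes. With library totals and no scaling factor the median was -0.39, against 0.37 over all genes, and 0 members passed, nor did any with a minimum fold of 1.5. Leaving out P10 replicate 2 or 3 gave 41 and 40 calls, and leaving out any other single library 53 to 73. At P7 relative to E17.5, 18 of 79 fell (22.8%), against 12.5% of all tested genes, with a median of -0.33, and 0 rose, against 12.9%, nor by DESeq2, limma-voom or an unadjusted p under 0.05 (0 members, 18.5% of all genes). That count was 5 without E17.5 replicate 1 or any single P7 library, 9 without P3 replicate 2 and 11 without E17.5 replicate 2. With library totals and no scaling factor the median for P7 vs E17.5 turned to 0.10, against 0.44 over all genes. Relative to all genes it was -0.34, and -0.32 after scaling. A scaling factor moves all genes of a library alike, so this difference barely depends on scaling and is no check of the fall.

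The 6 members with the lowest called fold changes at P10 relative to P3 were Rpsa, Rplp1, Rps26, Rpl41, Rps12 and Rplp0, and all 6 kept their call with any single library left out. Rpsa had 482, 347 and 345 CPM at P10, against 837, 730 and 954 CPM at P3 (log2 fold change -1.10, SE 0.19, adjusted p = 0.00487). Rplp1 had 998, 721 and 749 CPM at P10, against 1610, 1443 and 2152 CPM at P3 (-1.08, SE 0.19, adjusted p = 0.00497). Rplp0 had 529, 441 and 415 CPM at P10, against 905, 812 and 934 CPM at P3 (-0.94, SE 0.13, adjusted p = 0.00173). None of these 3 genes overlapped between the 2 stages, and in each of the 3 the P10 replicate 1 was the highest of its stage. Rps26 averaged 710 ± 7.07 CPM at P10 and 1448 ± 128 at P3, Rpl41 679 ± 116 and 1337 ± 107 CPM, and Rps12 438 ± 83.7 and 855 ± 75.2 CPM. P10 replicate 1 also differed from the other P10 libraries in its markers: its alveolar epithelial, airway epithelial and endothelial markers summed to 55.1, 71.4 and 9.20 CPM, against 145 to 195, 207 to 254 and 53.6 to 53.7 CPM in the other two. The part of this difference in the members' levels was not tested, and without P10 replicate 1 the calls for P10 vs P3 numbered 73 and those for P10 vs E17.5 61.

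Low called fold changes for P7 vs E17.5 were those of Rps14 (-0.76, adjusted p = 0.00191), Rps27 (-0.71, adjusted p = 0.00774), Rpl35a (-0.70, adjusted p = 0.0231), Rpl28 (-0.64, adjusted p = 0.00688) and Rpl9 (-0.53, adjusted p = 0.0128). Of these 5 calls only that of Rpl35a was lost when a single library was left out, in 5 of 12 fits with adjusted p up to 0.0810. Rps14, Rps27, Rpl35a and Rpl28 were thus among the lowest at both P7 and P10 relative to E17.5, 2 comparisons that share the E17.5 libraries.

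**Figure D4:**
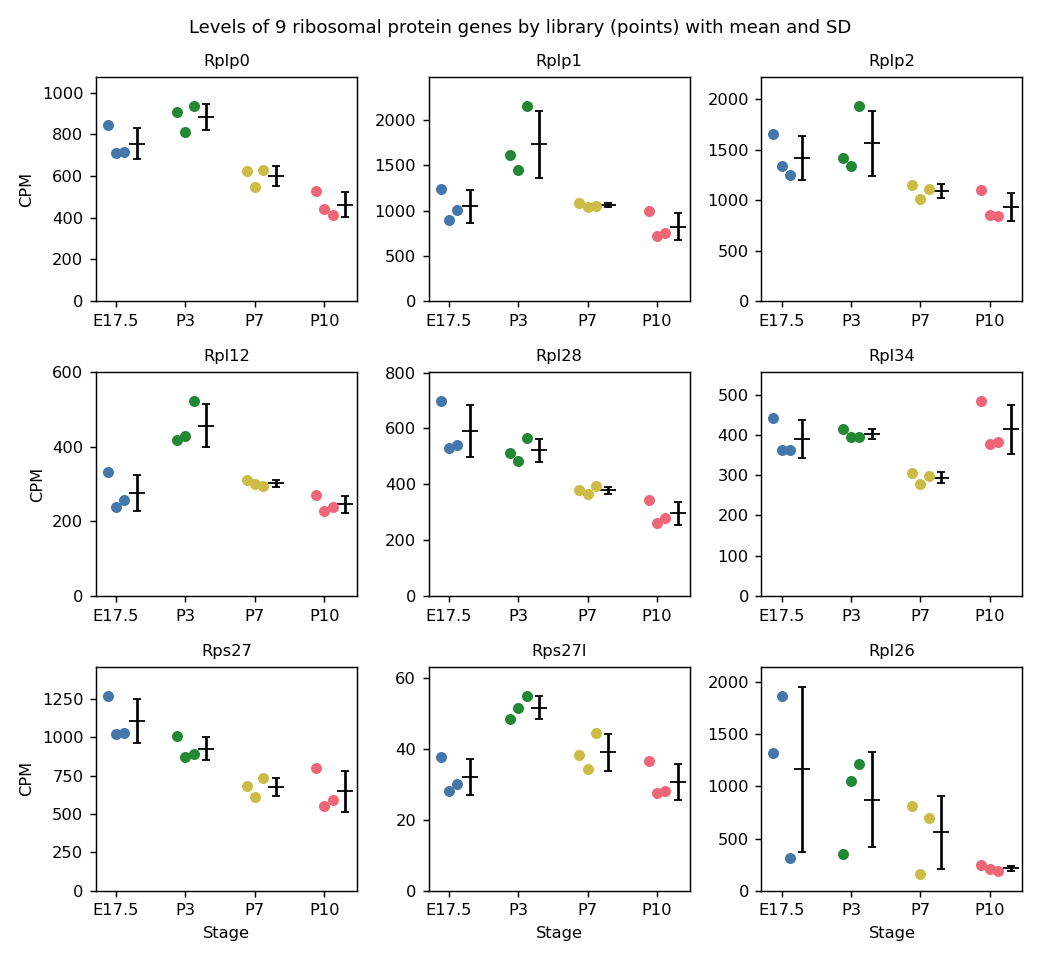
Levels of 9 members in every library (points, CPM) at each stage, with the mean and SD of 3 libraries (bars). Rplp0, Rplp1, Rplp2, Rpl12 and Rps27l have their highest mean at P3, Rpl28 and Rps27 at E17.5, Rpl34 is lowest at P7 (279 to 306 CPM), and Rpl26 ranges from 310 to 1864 CPM within E17.5 alone.

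Both subunits took part in these falls. For P10 vs P3, 28 of 32 small subunit members and 43 of 47 tested large subunit members fell, with medians of -0.77 and -0.68, where 9.4% of all tested genes fell. At P10 relative to E17.5 the counts were 20 of 32 and 32 of 47, with medians of -0.60 and -0.55, where 9.5% of all tested genes fell. No difference between the subunits was tested. Among the members of the highest mean level over all 12 libraries were Rpl23a (1735 CPM), Rpl13a (1482), Rplp2 (1250) and Rplp1 (1165), of which Rpl13a fell by 0.75 on the log2 scale at P10 relative to P3 (adjusted p = 0.00929), and the lowest among tested members were Rps4l (12.4) and Rps27l (38.3).

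Members with known roles outside the ribosome or in disease were described whatever their values. Rps6, the small subunit protein phosphorylated by S6 kinase downstream of mTOR, averaged 737 ± 126, 901 ± 100, 638 ± 29.9 and 536 ± 76.4 CPM from E17.5 to P10 and fell at P10 relative to P3 (log2 fold change -0.75, SE 0.15, adjusted p = 0.00876). Rpl11, which with Rpl5 and 5S rRNA can bind the p53 regulator Mdm2, averaged 389 ± 62.8, 441 ± 39.8, 307 ± 16.3 and 261 ± 31.8 CPM (P10 vs P3 -0.76, adjusted p = 0.00563). Rpl5 itself averaged 300 ± 46.0, 270 ± 60.6, 230 ± 25.4 and 194 ± 23.3 CPM, and its P10 vs P3 estimate of -0.48 did not pass (adjusted p = 0.0855). Rps19, the gene most often mutated in Diamond-Blackfan anaemia, fell by 0.86 on the log2 scale at P10 relative to P3 (adjusted p = 0.00936), and Rpl10a, a protein near the E site, fell by 0.62 (adjusted p = 0.00917). Rps27a, made as a fusion with ubiquitin, fell by 0.78 (adjusted p = 0.00684). Rpl22, an RNA-binding protein of the large subunit, and Rpl7 fell by 0.63 and 0.55 (adjusted p = 0.0158 and 0.0115), but both calls were lost without P10 replicate 2 or 3, and that of Rpl22 also without P3 replicate 1 (adjusted p up to 0.0694 and 0.0590).

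Paralogue pairs were followed side by side. Rpl36a, on the X chromosome, averaged 472 ± 71.1 CPM at P10 and 816 ± 21.3 at P3, and its autosomal copy Rpl36al 120 ± 11.1 and 205 ± 14.8 CPM. Their fold changes were -0.79 and -0.78 (adjusted p = 0.0150 and 0.0102), though the call of Rpl36a was lost without P10 replicate 2 or 3 (adjusted p up to 0.0675). The pair Rps27 and Rps27l ran differently: Rps27 had its highest mean at E17.5 (1106 ± 141 CPM) and Rps27l at P3 (51.6 ± 3.25 CPM). Rps27l stood at 30.7 ± 4.998 CPM at P10 and 32.0 ± 5.06 at E17.5 (log2 fold change -0.06, SE 0.15, adjusted p = 0.826), where Rps27 fell by 0.77. The difference between the 2 genes was not tested. Rpl3 averaged 314 ± 36.6 CPM at P10 and 498 ± 46.5 at P3 (-0.67, adjusted p = 0.00693), whereas its muscle relative Rpl3l was too low to test. Rpl39 averaged 88.8 ± 7.89 CPM at P10 and 136 ± 27.1 at P3 (-0.61, adjusted p = 0.0864); its paralogue Rpl39l was not analysed here.

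Single members varied between libraries of 1 stage far more than the rest. Rpl26, a large subunit protein that also binds the p53 mRNA in human cells, had 1319, 1864 and 310 CPM at E17.5, 355, 1050 and 1213 CPM at P3, 816, 163 and 701 CPM at P7 and 243, 213 and 190 CPM at P10. Only at P10 did its libraries lie close together, and its P10 vs E17.5 estimate of -2.43 did not pass (SE 0.77, adjusted p = 0.0557). Rps2 had 256, 195 and 91.3 CPM at E17.5, 313, 297 and 183 CPM at P3, 224, 207 and 226 CPM at P7 and 215, 79.5 and 80.5 CPM at P10. Rps4l, which the gene annotation calls a transcribed processed pseudogene, had 20.45, 17.2 and 10.5 CPM at E17.5, 19.5, 12.9 and 8.04 CPM at P3, 15.45, 14.6 and 14.4 CPM at P7 and 10.3, 1.75 and 3.96 CPM at P10. Its paralogue Rps4x, on the X chromosome, stood at 310.4 to 419.9 CPM at P10 and 538 to 589.5 CPM at P3. Ribosomal protein genes have many near-identical processed pseudogenes, between which the counting may divide reads: 189 rows named -ps summed to 5.71% to 8.06% of the members' summed value in each library. Pseudogenes under other symbols were not counted in this share, and reads may be divided in this way for any member. The values of Rpl26, Rps2 and Rps4l, which varied most within a stage, are uncertain, and the part of such reads in their spread was not tested.

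Of 7 ribosomal protein genes or close relatives that the naming rule misses, 4 fell at P10 relative to E17.5 and 4 at P10 relative to P3, against 9.5% and 9.4% of all tested genes, among them Rps3a1, Fau and Gnb2l1 in both. None of the 7 rose in either, by DESeq2 and limma-voom as well. Leaving out E17.5 replicate 1, P10 replicate 2 or P10 replicate 3 left 2 calls for P10 vs E17.5, and library totals with no scaling factor left 0 in both, at medians of -0.18 and -0.35. Rps3a1 had 327, 260 and 277 CPM at P10, against 577, 587 and 725 CPM at P3 and 500, 510 and 499 CPM at E17.5 (P10 vs P3 -1.13, SE 0.13, adjusted p = 0.000973). Fau, which encodes Rps30 fused to a ubiquitin-like protein, averaged 453 ± 66.4 CPM at P10 and 709 ± 46.1 at P3 (-0.65, adjusted p = 0.00806). Gnb2l1, the older symbol of the small subunit scaffold Rack1, averaged 284 ± 51.9 and 467 ± 49.3 CPM (-0.72, adjusted p = 0.00680). Rpl22l1, the paralogue of Rpl22, averaged 56.8 ± 9.06 CPM at P10 and 72.7 ± 8.57 at P3 (-0.36, adjusted p = 0.122).

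Of 40 ribosome assembly factors, 28 rose at P3 relative to E17.5, against 13.1% of all tested genes, and 0 fell, against 12% (1 by an unadjusted p under 0.05, 0 by DESeq2 or limma-voom), with a median log2 fold change of 0.71, against 0.15 for the ribosomal protein genes and -0.05 over all tested genes. Nhp2, a protein of the box H/ACA particles that guide pseudouridine formation in rRNA, had 25.1, 29.3 and 30.2 CPM at P3, against 9.58, 8.08 and 8.55 CPM at E17.5 (1.69, SE 0.13, adjusted p = 2.72e-05). Pno1, a small subunit assembly factor, had 11.5, 14.98 and 15.9 CPM at P3, against 5.37, 4.96 and 5.74 CPM at E17.5 (1.39, SE 0.18, adjusted p = 0.000509). Nop16 and Mrto4, factors of large subunit assembly, rose by 1.11 and 1.03 on the log2 scale (adjusted p = 0.000126 and 0.000777). These 4 calls held with any single library left out, with which the count for the list ranged from 21 to 30. It was 16 with library totals and no scaling factor and 6 with a minimum fold of 1.5. For P10 vs P3, 17 of the 40 fell, against 9.4% of all tested genes, with a median of -0.49, and 0 rose (1 by an unadjusted p under 0.05, 0 by DESeq2 or limma-voom). The 17 calls became 10 without P3 replicate 3 and 9 without P10 replicate 2 or 3, and with library totals and no scaling factor 0, at a median of -0.14. For P10 vs E17.5, 5 rose, near the 8.79% of all tested genes that did (10 with library totals and no scaling factor), and 0 fell, also by DESeq2, limma-voom or an unadjusted p under 0.05, with a median of 0.18, against -0.57 for the ribosomal protein genes. The difference between the 2 sets of genes was not tested. Nop16 was one of them, at 13.7 ± 0.377 CPM at P10 and 8.92 ± 0.278 at E17.5 (0.62, SE 0.11, adjusted p = 0.00379), and Gnl3, the nucleolar GTPase nucleostemin, another, at 25.4 ± 1.56 and 16.6 ± 1.80 CPM (0.62, adjusted p = 0.0110). The 5 calls became 2 without E17.5 replicate 2 and 3 without P3 replicate 2, P7 replicate 3, P10 replicate 1 or P10 replicate 2.

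RNA polymerase I, which transcribes the large rRNA precursor, had 7 of 21 listed genes higher at P3 relative to E17.5, against 13.1% of all tested genes, and 0 lower, against 12% (also 0 by DESeq2, limma-voom or an unadjusted p under 0.05), with a median of 0.41. Without P3 replicate 1 or 2 there were 3 calls, and without E17.5 replicate 2 or 3 or P7 replicate 2 or 3 there were 4, and with library totals and no scaling factor 0. Taf1d, a subunit of its selectivity factor, averaged 79.5 ± 14.7 CPM at P3 and 48.9 ± 2.03 at E17.5 (0.70, SE 0.12, adjusted p = 0.00187), and Tcof1, the nucleolar protein treacle, 16.2 ± 0.954 and 10.3 ± 1.10 CPM (0.65, SE 0.10, adjusted p = 0.00123). Tcof1 fell again at P10 relative to P3 (-0.63, adjusted p = 0.00393), at 10.5, 10.4 and 10.6 CPM, one of 3 genes of the list that did. For P10 vs E17.5, 1 gene of the list rose and 1 fell, against 8.79% and 9.5% of all tested genes, and each count ranged over 0 to 2 when a single library was left out.

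**Figure D5:**
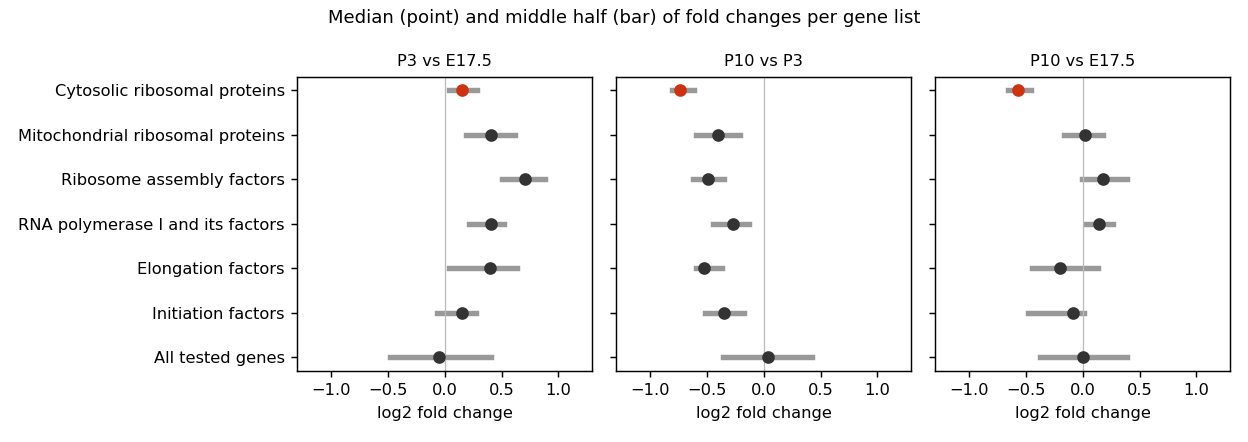
Median log2 fold change (point) and range of the middle of the distribution, from the lower to the upper quartile (bar), for 6 gene lists and for all tested genes in 3 comparisons after TMM scaling. For P3 vs E17.5 the assembly factors have a median of 0.71 and the cytosolic ribosomal proteins 0.15, and for P10 vs E17.5 the mitochondrial ribosomal proteins lie at 0.02 and the cytosolic ones at -0.57; with library totals and no scaling factor these become 0.50 and -0.09, and all tested genes 0.50.

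The list of elongation factors also holds Eef2k and Eef1e1, which are not elongation factors themselves. Of its 9 tested genes, 3 rose and 1 fell at P3 relative to E17.5, against 13.1% and 12% of all tested genes. At P10 relative to E17.5, 3 fell, against 9.5% of all, and 0 rose (0 by DESeq2, limma-voom or an unadjusted p under 0.05). Eef2k, the kinase that inhibits elongation factor eEF2, had 11.2, 14.2 and 9.73 CPM at P3, against 29.02, 27.0 and 28.6 CPM at E17.5 (-1.27, SE 0.16, adjusted p = 0.000336), and all 3 P3 libraries lay far below. Eef2k was the 1 fall at P3, and at P10 relative to E17.5 it was one of the 3 falls (adjusted p = 0.00364), with Eef2 and Eef1a1. Eef1e1, a multisynthetase complex protein, averaged 6.77 ± 0.278 CPM at P3 and 2.96 ± 1.14 at E17.5 (1.18, adjusted p = 0.00803). Eef1a1, the most abundant of the list, averaged 2191 ± 276 CPM at P10 and 3061 ± 303 at P3. Eef2 averaged 560 ± 99.2 CPM at P10 and 867 ± 77.1 at E17.5 (-0.63, adjusted p = 0.0104, and 0.0568 without P10 replicate 3). The list's 3 calls for P10 vs E17.5 became 1 without P10 replicate 3, and its 3 rising calls for P3 vs E17.5 became 5 without P10 replicate 1. At P10 relative to P3, 6 fell, against 9.4% of all tested genes, among them Eef1b2, an exchange factor for eEF1A (-0.78, SE 0.14, adjusted p = 0.00548), and 0 rose (1 by an unadjusted p under 0.05 and by DESeq2, 0 by limma-voom). Those 6 became 1 without P10 replicate 3, 2 without P10 replicate 2 or P3 replicate 3, and 3 without P3 replicate 1 or any single P7 library. When library totals were used with no scaling factor, 0 fell in either comparison with P10, and 1 rose and 1 fell for P3 vs E17.5.

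Of 28 initiation factors, 6 rose at P3 relative to E17.5, against 13.1% of all tested genes, among them Eif2s1, the alpha subunit of eIF2 (0.65, SE 0.12, adjusted p = 0.00253), and Eif3b, a core subunit of eIF3 (0.61, SE 0.11, adjusted p = 0.00311), and 3 fell, near the 12% of all tested genes that did. For P10 vs E17.5, 10 fell, against 9.5% of all, and 0 rose (0 by DESeq2, limma-voom or an unadjusted p under 0.05), among them Eif4b, a helicase cofactor (64.3 ± 11.5 and 114 ± 6.74 CPM, -0.83, adjusted p = 0.00160), and the eIF3 subunits Eif3h (-0.71, adjusted p = 0.00241) and Eif3k (-0.66, adjusted p = 0.00140). For P10 vs P3, 11 fell, against 9.4% of all, and 0 rose (1 by an unadjusted p under 0.05 and by DESeq2, 0 by limma-voom), with Eif3i lowest (47.9 ± 1.33 and 80.4 ± 5.29 CPM, -0.75, SE 0.10, adjusted p = 0.00148). The 11 calls became 18 without P10 replicate 1 and 7 without P3 replicate 3 or P10 replicate 2 or 3. The 6 rising calls became 2 without P3 replicate 3 and 3 without E17.5 replicate 1 or 2, P3 replicate 1 or P7 replicate 2 or 3. The 3 falling ones became 0 without E17.5 replicate 2 and 1 without E17.5 replicate 1, P3 replicate 1 or 2 or P7 replicate 2. When library totals were used with no scaling factor, 0 fell in any of the 3 comparisons, and 1 rose at P3 and 1 at P10 relative to E17.5. Fits to only the 6 libraries compared gave 4 falls for P10 vs E17.5, and 2 rises and 1 fall for P3 vs E17.5.

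Of 12 other mRNAs known for a terminal oligopyrimidine start, 3 rose at P3 relative to E17.5, against 13.1% of all tested genes: Snhg5, a host gene of small nucleolar RNAs (52.1 ± 8.21 and 23.2 ± 2.75 CPM, 1.17, adjusted p = 0.00166), Hnrnpa1 (0.71, adjusted p = 0.00589) and Npm1, the nucleolar chaperone nucleophosmin (0.63, adjusted p = 0.00560). None fell in that comparison or rose at P10 relative to P3, also by DESeq2, limma-voom or an unadjusted p under 0.05. For P10 vs P3, 5 fell, against 9.4% of all tested genes, with a median of -0.58, among them Hnrnpa1 (-0.80, adjusted p = 0.00664) and Npm1 (-0.74, adjusted p = 0.00539), and the 5 became 2 without P3 replicate 3 or P10 replicate 2 and 3 without P10 replicate 3. Library totals with no scaling factor gave 1 rise for P3 vs E17.5 and 0 falls for P10 vs P3. For P10 vs E17.5, 2 genes of the list fell and 1 rose, against 9.5% and 8.79% of all tested genes. With 1 library left out these counts ranged over 1 to 3 and 0 to 1. With library totals and no scaling factor they were 0 and 1. Among the falls was Tpt1, the translationally controlled tumour protein. It averaged 1498 ± 203 CPM at P10 and 2530 ± 528 at E17.5 (-0.76, SE 0.15, adjusted p = 0.00689).

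Of 26 tested genes of the MYC and mTOR pathways, which regulate ribosome production, 6 fell at P3 relative to E17.5 (3 without P3 replicate 2, and 4 with library totals and no scaling factor), against 12% of all tested genes, and 0 rose, against 13.1% (0 by DESeq2, limma-voom or an unadjusted p under 0.05, and 1 without E17.5 replicate 2). They were Myc and 5 genes known as antagonists of MYC, of mTOR or of translation initiation: Deptor, Ddit4, Mnt, Mxd4 and Pdcd4. Deptor, an mTOR inhibitor, had 1.5, 1.25 and 2.57 CPM at P3, against 9.99, 11.7 and 3.34 CPM at E17.5 (-2.23, SE 0.46, adjusted p = 0.00560). Ddit4, another inhibitor of mTOR signalling, had 6.89, 8.37 and 5.88 CPM at P3, against 16.6, 28.7 and 29.5 CPM at E17.5 (-1.82, SE 0.37, adjusted p = 0.00522). Both were lower in every P3 library. Mnt, a MYC antagonist, averaged 17.1 ± 2.47 CPM at P3 and 36.8 ± 6.53 at E17.5 (-1.11, adjusted p = 0.000719). Myc itself had 27.3, 25.9 and 41.1 CPM at P3, against 76.4, 110 and 41.1 CPM at E17.5 (-1.27, SE 0.33, adjusted p = 0.0169), a call lost without E17.5 replicate 2, P3 replicate 1 or P3 replicate 2 (adjusted p up to 0.0745), and 42.3 ± 9.07 CPM at P10. Mycn averaged 10.4 ± 4.87 CPM at P3 and 5.86 ± 2.98 at E17.5 (adjusted p = 0.172). Mtor, at 11.2 ± 1.78 and 12.1 ± 0.642 CPM, and Larp1, at 34.3 ± 4.81 and 31.1 ± 1.54 CPM, did not pass (adjusted p = 0.611 and 0.476). For P10 vs E17.5, 8 of the 26 fell and 2 rose, against 9.5% and 8.79% of all tested genes. With 1 library left out these counts ranged over 4 to 7 and 1 to 2. With library totals and no scaling factor they were 1 and 3. Among the falls was Rps6ka1, which encodes the kinase RSK1 and not a ribosomal protein. It had 0.534, 0.841 and 0.813 CPM at P10, against 4.76, 2.82 and 3.70 CPM at E17.5 (-2.36, SE 0.39, adjusted p = 0.00191).

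The mitochondrial ribosome has its own protein set, made from nuclear genes. Of 77 such genes, 23 rose at P3 relative to E17.5 and 1 fell, against 13.1% and 12% of all tested genes, with a median of 0.41. With library totals and no scaling factor 3 rose. Mrpl16 had 13.3, 13.1 and 9.52 CPM at P3, against 5.17, 4.57 and 6.88 CPM at E17.5 (1.10, SE 0.19, adjusted p = 0.00209), and Mrps18c 26.9, 29.8 and 22.7 CPM, against 14.8, 5.94 and 9.86 CPM (1.37, SE 0.31, adjusted p = 0.00929). In both genes the P3 libraries lay above all E17.5 libraries. For P10 vs P3, 20 fell, against 9.4% of all tested genes, and 0 rose (0 by DESeq2, limma-voom or an unadjusted p under 0.05), with a median of -0.41. The 20 calls became 6, 8, 7 and 10 without P10 replicate 2, P10 replicate 3, P3 replicate 2 or P3 replicate 1 in turn, and 13 without P3 replicate 3, P7 replicate 1 or P7 replicate 3. Library totals with no scaling factor gave 0 falls, at a median of -0.06. Mrpl46 was the lowest, at 5.001 ± 1.20 CPM at P10 and 10.4 ± 0.654 at P3 (-1.05, SE 0.19, adjusted p = 0.00548). For P10 vs E17.5, 1 rose and 2 fell, against 8.79% and 9.5% of all tested genes, with a median of 0.02, where 52 of 79 cytosolic members fell with a median of -0.57; the difference between the 2 lists was not tested. Under library totals with no scaling factor, the medians for P10 vs E17.5 turned above 0 for the elongation factors (0.27), the initiation factors (0.42), the other mRNAs with a pyrimidine start (0.29) and the MYC and mTOR genes (0.40), and that for P10 vs P3 did so for RNA polymerase I (0.06), while the median of all tested genes moved to 0.50 and 0.37.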

How the data were processed

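Low-input stranded total RNA libraries were made from sorted cells, per the labels' protocols, while another label says polyA. GRCm38 was the build, per the submitters' processing notes, with aligner and quantifier not given in the sources used here. What the authors deposited is 1 table of estimated counts per gene, scaled and then rounded. The median lowest value of a gene with 1 transcript was 8 at 300 to 400 nt and 1 above 1000 nt, so values of short genes are not numbers of reads and no counting intervals are given. Here, CPM with TMM scaling were computed, and genes were tested in R 4.3.3 by edgeR's quasi-likelihood test (version 4.0.16; robust, filterByExpr by stage, 1 model over 12 libraries, Benjamini-Hochberg at 0.05 over 16827 genes), with SE as the fold change over the square root of F. Positions are from GENCODE mouse release 21. The members and the gene lists were chosen with earlier results of these data known. Named were the paralogues, stalk proteins and members with extra roles, the 5 highest members, the 6 highest and 6 lowest called per comparison (3 estimates each way where none passed), and up to 4 called genes per list. Some genes that this rule would name are not reported here. Alternatives were other scalings, no filter, no robust estimation, DESeq2 1.42.0, limma-voom (limma 3.58.1), a fit to the 6 libraries of a comparison, the replicate number as a block, a least fold of 1.5, and leaving out each library. Library totals alone, the removal of both libraries with extreme scaling, the comparisons P7 vs E17.5 and P10 vs P3, and the repeats for the gene lists were added after seeing the data.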

Additional observations from a re-analysis of the deposited data

How the results depend on the processing

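Each count of called members was recomputed under 11 other settings of the analysis, with each library left out, and under 2 settings chosen after seeing the data. The counts 71 (4 stages), 6 (P3 vs E17.5, higher), 0 (P7 vs P3, lower), 0 and 0 (P10 vs P7, higher and lower), 52 (P10 vs E17.5, lower), 18 (P7 vs E17.5, lower) and 71 (P10 vs P3, lower) ranged over 48 to 74, 2 to 18, 0 to 3, 0 to 1, 0 to 2, 13 to 61, 5 to 20 and 40 to 73 when 1 library was left out. With library totals alone they were 0 for the 4 stages, 0 for P3 vs E17.5, 0 for P10 vs E17.5, 0 for P7 vs E17.5 and 0 for P10 vs P3. Without both libraries of extreme scaling they were 45, 2, 13, 6 and 46 in the same order. With a minimum fold of 1.5 they were 0 for P3 vs E17.5, 2 for P10 vs E17.5, 0 for P7 vs E17.5 and 0 for P10 vs P3. With only the 6 libraries compared they were 2 for P3 vs E17.5, 6 for P10 vs E17.5 and 10 for P7 vs E17.5. Neither of these settings applies to the 4-stage test. Upper quartile scaling gave 10 for P3 vs E17.5, 1 higher for P10 vs P7 and 11 for P7 vs E17.5, no filter gave 8 for P7 vs E17.5, limma-voom gave 1 higher for P10 vs P7, and DESeq2 gave 12 for P3 vs E17.5, 44 for P7 vs P3 and 1 higher and 2 lower for P10 vs P7. A fit on fewer libraries has fewer degrees of freedom; otherwise the cause of these changes was not tested. The counts of members higher at P7 vs P3, P10 vs E17.5, P7 vs E17.5 and P10 vs P3 and lower at P3 vs E17.5 were 0 under every setting run.

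The members' median kept its sign in each comparison under every setting named here except library totals for P7 vs E17.5. Single genes were followed in 100 combinations of a named gene and a comparison, all with an unadjusted p under 0.05 in the main fit. Of these, 0 changed direction in any setting, and over all settings 295 results lost their call and 20 gained one. Estimates nearer 0 were left out of this count, and among all members directions did change. With library totals, members with an estimate above 0 went from 1 to 23 for P10 vs E17.5 and from 5 to 63 for P7 vs E17.5. Libraries of different stages share replicate numbers, but deviations of same-numbered libraries correlated at -0.20 to 0.14 over 18 pairs, 3 of them above 0.1. No sign of pairing by number was seen, but deviations from a mean of 3 libraries cannot exclude it. The submitters' own sample numbers differ from these replicate numbers for E17.5 replicate 3 and all P7 libraries. Pairing by those sample numbers was not examined, here or with the block. With the replicate number as a block, the counts were 70 for the 4 stages, 8 for P3 vs E17.5, 52 for P10 vs E17.5, 16 for P7 vs E17.5 and 69 for P10 vs P3. Low members such as Rps4l and Rpl3l averaged 12.4 and 0.0430 CPM over the 12 libraries, and the part of depth in their values was not tested.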
